A study of Mus musculus with 24 samples.

Results

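Livers that lack the transcription factor FoxO1 were compared between a high-fat diet (HFD) and a regular diet (RD). The members are the 3 libraries labelled HFD_LFKO and the 3 labelled RD_LFKO, chosen by their labels, which makes 6 of the 24 libraries of the series. All are liver from mice with the genotype FoxO1-/-, written LFKO, made by crossing FoxO1lox/lox mice with Albumin-cre mice. The diets lasted 3 weeks, and livers were taken after a 4 h fast. Albumin-cre acts in hepatocytes, so the other cells of the liver keep FoxO1, and the labels give no age or sex. Another 2 pairs of groups serve for comparison, each with 3 RD and 3 HFD libraries under the same diets and fast: WT livers, labelled FoxO1lox/lox; PPARαlox/lox, and livers labelled LFPKO, which lack FoxO1 and PPARα. A further genotype, labelled LPKO, also has 3 RD and 3 HFD libraries. It is not compared here, but its libraries enter the fit, the expression filter and the scaling. Replicates are numbered in the labels, and nothing says that they are different mice. A p-value therefore reflects only how far these libraries spread, which may be technical. Libraries are written RD 1 to RD 3 and HFD 1 to HFD 3.

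FoxO1 is active when insulin is low. It then drives hepatocyte genes for glucose release, and insulin removes it from the nucleus through AKT. A high-fat diet supplies fat, and often cholesterol, and the liver responds through sterol-sensing SREBP2, fat-sensing PPARα and insulin-driven SREBP1c. Hepatocytes also carry detoxifying enzymes under CAR, PXR and NRF2, nuclear factors that respond to foreign compounds and to oxidants, and a set of sex-biased genes under growth hormone.

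Foxo1 itself was at 0.407, 0.308 and 0.484 TPM (a gene's part of all transcripts, on the same total in each library) in the RD livers and at 0.362, 0.341 and 0.401 TPM in the HFD livers, against 4.06 to 5.52 TPM over the 6 WT libraries. Depth cannot be read from TPM and is unknown. Among the 6 LFKO libraries HFD 1 stood apart. Of 10551 tested genes it was the lowest of the 3 HFD libraries for 8580, and its Mup genes, which encode major urinary proteins, took 17.7% of TPM, against 10.9% in HFD 2, 6.51% in HFD 3 and 5.06% to 6.87% on RD. Mup genes took 20.07% to 30.68% of TPM in HFD WT livers and 20.25% to 28.46% in HFD LFPKO livers. In this share HFD 1 was the LFKO library nearest to those livers, while HFD 3 lay inside the range of the RD LFKO libraries. Transcripts of the mitochondrial genome took 18.2% to 19.6% of TPM on RD and 21.9% to 23.4% on HFD. Because TPM is a share, a gain in some genes lowers the share of the others, so counts are also given after median-of-ratios scaling, which divides a library by the typical ratio of its genes to the average library. The Y-linked gene Ddx3y was at 13.4 to 21.5 TPM in all 24 libraries. Ppara was not lower in the LFPKO livers (57.5 to 74.1 TPM) than in the LFKO livers (42.1 to 68.8 TPM), so gene-level TPM do not check that label.

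In livers without FoxO1, genes called lower on HFD included 18 of 28 NRF2 and glutathione genes, 13 of 25 CAR and PXR targets, 18 of 26 cholesterol genes and 21 of 27 ribosomal protein genes, and genes called higher were led by Mup genes. With a mean per group in 1 limma fit of all libraries, 997 of 10551 tested genes were called at an adjusted p under 0.05, which is 9.45%. Of these, 117 were higher on HFD (1.11% of tested genes) and 880 were lower (8.34%). The median log2 change of all tested genes was -0.11. After scaling that median was 0.00 and 1147 genes were called, 452 higher and 695 lower, so that the share of calls that were higher went from 11.7% to 39.4%. With TPM recomputed without Mup and mitochondrial transcripts the median was 0.06 and 1122 genes were called, 617 higher and 505 lower, so that 55% of calls were higher and the excess of lower calls turned round. None of the 997 genes changed sign under either where it had a value. The 3 HFD libraries were all below the 3 RD libraries for 2493 genes (23.6%) and all above for 609 (5.77%). Changes below are log2 fold changes ± SE of TPM + 1, a scale that shrinks the change of weakly expressed genes, and adjusted p are from limma with Benjamini-Hochberg adjustment.

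The count of calls depended on which libraries were used. It was 340 without HFD 1, 326 without RD 2, 339 without RD 3, 633 without HFD 2, 673 without RD 1 and 1377 without HFD 3. Lower calls were 12.1% of tested genes without HFD 3, 2.3% without HFD 1 and 2.78% to 5.83% without each other library. Higher calls were 0.256% to 0.919% without single libraries. Of the 997 genes, 230 were called whichever of these libraries was left out and 229 of those also after scaling, 21 higher and 208 lower. A gene or list described as kept in all leave-outs is one called without each of the 6 libraries in turn. Most genes kept in this way belonged to the lower side. Without Mup and mitochondrial transcripts the lower calls numbered 13 of CAR and PXR targets, 16 of NRF2 and glutathione genes, 10 of cholesterol genes, 18 of ribosomal protein genes, 18 of nuclear respiratory chain genes and 5 of immediate early genes, and among all these 2 CAR and PXR targets were called higher. Male-biased genes, with the Mup genes removed, had 2 higher and 1 lower, and peroxisomal genes 2 higher and none lower. In the same setting hepatocyte markers had 5 higher and 4 lower, and amino acid genes 4 higher and 1 lower. FoxO1 targets had 3 higher and 4 lower there, and secreted hormones 3 higher and 4 lower. Of all genes tested in that setting 5.87% were higher and 4.8% lower.

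**Figure D1:**
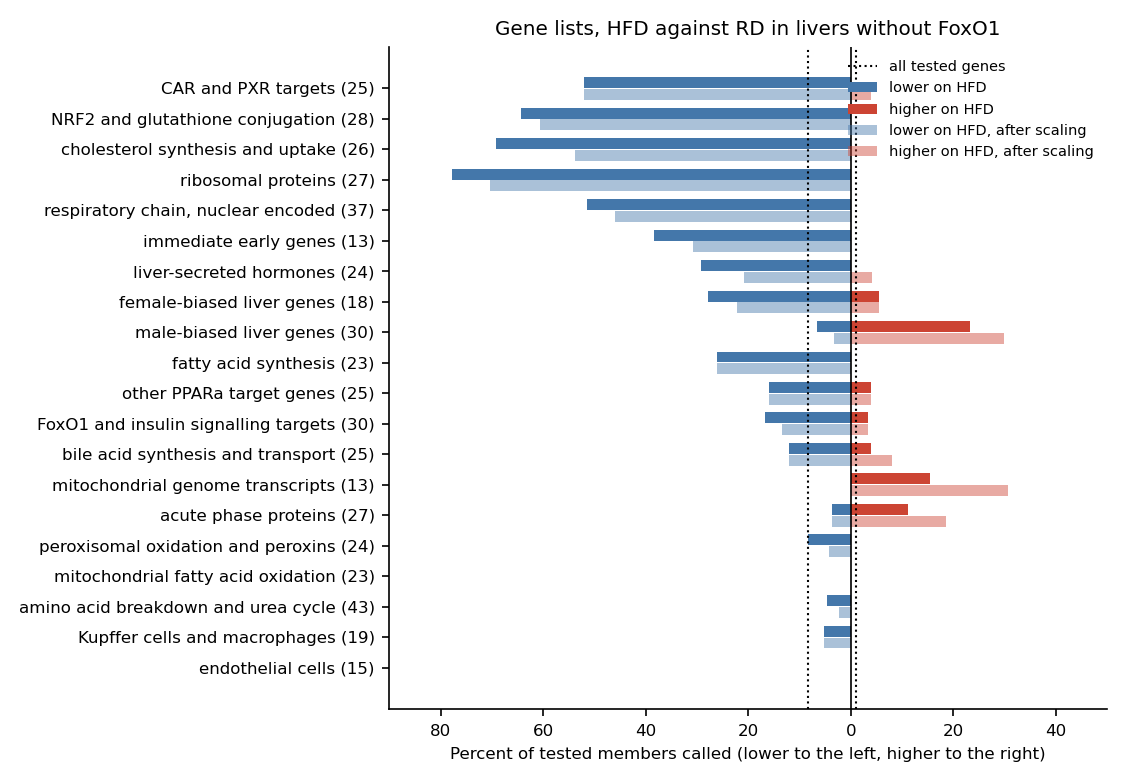
Percent of the tested members of 20 gene lists (number tested in brackets) called lower (left) or higher (right) on HFD in LFKO livers, with the deposited TPM in full colour and after scaling in pale colour. Dotted lines mark all tested genes, at 8.34% lower and 1.11% higher. CAR and PXR targets, NRF2 and glutathione genes, cholesterol genes and ribosomal proteins reach far past the lower line on both scales, while the mitochondrial fatty acid oxidation list has no bar.

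Many genes controlled by CAR and PXR, the nuclear receptors that sense drugs and other foreign compounds, fell on HFD. Of 25 tested members 13 fell and none rose, with a median log2 change of -1.01, against -0.11 over all tested genes and 8.34% of tested genes lower. Cyp3a11, a main drug-oxidising cytochrome P450 of mouse liver and the standard PXR target, was at 3108, 4947 and 3776 TPM on RD and 49.3, 142 and 286 TPM on HFD (log2 change -4.93 ± 0.52, adjusted p = 9.68e-06). It lies at chr5:145854426-145879964 on the minus strand (GENCODE M21, GRCm38). HFD 3, the highest on HFD, was still far below the lowest RD library. Cyp2b10, the standard CAR target, was at 5.57, 3.99 and 3.19 TPM on RD and 0.0643, 0 and 0.106 TPM on HFD (log2 change -2.29 ± 0.44, adjusted p = 0.00375). Cyp2c55, a further cytochrome P450 that CAR and PXR induce, was at 7.39, 15.7 and 17.8 TPM on RD and 0.35, 0.558 and 0.939 TPM on HFD (log2 change -3.11 ± 0.21, adjusted p = 1.90e-08). All 3 genes had HFD libraries below every RD library.

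More abundant members followed with smaller changes. Cyp2c29, a pericentral cytochrome P450, was at 1231, 1518 and 1136 TPM on RD and 211, 481 and 512 TPM on HFD (log2 change -1.78 ± 0.29, adjusted p = 0.00132). Ces2a, a carboxylesterase that splits esters, was at 242, 286 and 309.6 TPM on RD and 68.8, 86.1 and 113 TPM on HFD (log2 change -1.65 ± 0.18, adjusted p = 1.14e-05). Cyp1a2, which oxidises aromatic amines and caffeine, was at 721, 683 and 562 TPM on RD and 333, 318 and 318 TPM on HFD (log2 change -1.01 ± 0.14, adjusted p = 0.000196). The HFD libraries of Cyp1a2 lay within 1 narrow range while its RD libraries varied more. Cyp3a59, which is not on the list and belongs to the same Cyp3a cluster on chromosome 5, was at 34.1, 56.2 and 52 TPM on RD and 3.31, 8.88 and 14.5 TPM on HFD (log2 change -2.45 ± 0.35, adjusted p = 0.000382). Reads may be divided uncertainly among near-identical Cyp3a and Cyp2c copies.

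Of the 13 lower members, 11 kept their call in all leave-outs, and the count ran from 11 to 13 over them. It was 13 after scaling, when Por, the reductase that passes electrons to cytochromes P450, was called higher. Por was at 233, 277 and 209 TPM on RD and 338, 345 and 455 TPM on HFD (log2 change 0.66 ± 0.21, adjusted p = 0.0534), and its adjusted p was 0.0211 after scaling. Transcripts of the receptors were not called. Nr1i2, which encodes PXR, was at 34.4, 37 and 31.7 TPM on RD and 27.6, 27.2 and 28.8 TPM on HFD (log2 change -0.29 ± 0.16, adjusted p = 0.256), and Nr1i3, which encodes CAR, was at 141, 125 and 84.5 TPM on RD and 70.6, 111 and 178 TPM on HFD (log2 change -0.03 ± 0.34, adjusted p = 0.973). Nr1i3 ranged more widely within HFD than between the diets, with HFD 1 lowest and HFD 3 highest. Cyp3a16 was listed at 0 in 5 of the 6 libraries and could not be tested.

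**Figure D2:**
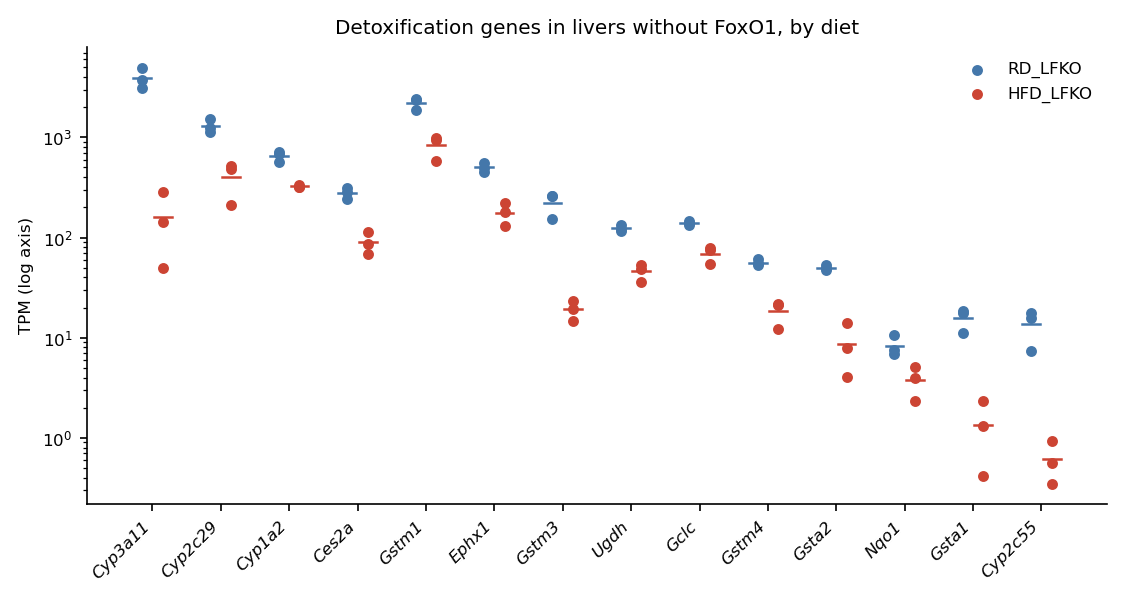
TPM on a log axis of 14 detoxification genes in the 3 RD_LFKO libraries (blue) and the 3 HFD_LFKO libraries (red), with a bar at the mean of each group. The HFD points lie below the RD points for each of the 14 genes, with the widest gap at Cyp3a11.

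Glutathione transferases and other genes under NRF2, the factor that raises antioxidant and conjugating enzymes, fell in many cases as well. Of 28 tested members 18 fell and none rose, with a median of -0.97, and 22 had all HFD libraries below all RD libraries (23.6% of all tested genes did). Gstm3, a mu-class glutathione transferase, was at 153, 257 and 258 TPM on RD and 14.6, 23.3 and 19.4 TPM on HFD (log2 change -3.46 ± 0.31, adjusted p = 1.01e-06). The alpha-class gene Gsta1 was at 11.2, 17.7 and 18.5 TPM on RD and 1.32, 0.418 and 2.31 TPM on HFD (log2 change -2.89 ± 0.37, adjusted p = 0.000104), and its near-identical neighbour Gsta2 at 53.1, 47.2 and 49.9 TPM on RD and 4.04, 7.86 and 13.9 TPM on HFD (log2 change -2.55 ± 0.46, adjusted p = 0.00267). These 3 were also counted among CAR and PXR targets, so the lists overlap.

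Genes outside the transferase family were called too. Ephx1, the microsomal epoxide hydrolase, was at 456, 555 and 491 TPM on RD and 129, 181 and 222 TPM on HFD (log2 change -1.52 ± 0.21, adjusted p = 0.000265). Ugdh, which makes the UDP-glucuronic acid used in glucuronidation, was at 116, 134 and 121 TPM on RD and 35.8, 48.8 and 53.6 TPM on HFD (log2 change -1.42 ± 0.22, adjusted p = 0.000853). Gclc, the catalytic subunit that sets the rate of glutathione synthesis, was at 134, 139 and 147 TPM on RD and 54.2, 78.2 and 74.8 TPM on HFD (log2 change -1.03 ± 0.20, adjusted p = 0.00342). Its partner Gclm was at 169, 191 and 172 TPM on RD and 108, 164 and 155 TPM on HFD (log2 change -0.33 ± 0.16, adjusted p = 0.207) and was not called. The classical NRF2 targets Nqo1 and Hmox1 fell less firmly: Nqo1 was at 7.45, 10.5 and 6.88 TPM on RD and 2.34, 3.93 and 5.08 TPM on HFD (log2 change -0.98 ± 0.25, adjusted p = 0.0189) and lost its call without RD 2 or HFD 1 (adjusted p up to 0.116). Hmox1, heme oxygenase 1, was at 11.5, 20.8 and 13.7 TPM on RD and 3.9, 5.15 and 5.45 TPM on HFD (log2 change -1.46 ± 0.35, adjusted p = 0.0136) and lost its call without RD 2 or HFD 1 (adjusted p up to 0.0787).

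Of the 18 lower members 13 kept their call in all leave-outs, with counts from 13 to 18, and 17 were called after scaling. Csad, which makes hypotaurine, the precursor of taurine, from cysteine sulfinate, was among the lowest genes outside these lists at 271, 318 and 244 TPM on RD and 37.6, 55.5 and 50.8 TPM on HFD (log2 change -2.52 ± 0.22, adjusted p = 1.01e-06). It was 1 of 2 lower genes among 43 tested genes of amino acid breakdown and the urea cycle, of which none rose (8.34% of all tested genes fell). The count was 6 without HFD 3, when 12.1% of all tested genes fell. The other lower gene was Cbs, the first enzyme of transsulfuration, at 239.5, 224 and 271 TPM on RD and 131, 196 and 203 TPM on HFD (log2 change -0.49 ± 0.15, adjusted p = 0.0464), which lost its call without RD 1, RD 2, RD 3 or HFD 1 (adjusted p up to 0.263). Cdo1, which oxidises cysteine in the step before Csad, was at 1271, 1161 and 899 TPM on RD and 955, 1122 and 1267 TPM on HFD (log2 change 0.01 ± 0.16, adjusted p = 0.978) and its groups overlapped.

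Some male-biased liver genes rose and some female-biased genes fell on HFD. Of 30 tested male-biased genes 7 rose and 2 fell, with a median of 0.50 (1.11% of all tested genes rose). Of 18 female-biased genes 5 fell and 1 rose, with a median of -0.87 (8.34% of all tested genes fell). The count of female-biased genes that fell was 8 without HFD 3 and 3 or 4 without each of the other libraries. The risers were led by Mup genes on chromosome 4, whose proteins carry pheromones and whose transcription growth hormone pulses drive in males. Mup7 (chr4:60066469-60070475, minus strand, GENCODE M21 on GRCm38) was at 545, 309 and 536 TPM on RD and 37746, 8551 and 892 TPM on HFD (log2 change 3.88 ± 0.79, adjusted p = 0.00533). Mup21 was at 34.6, 46.5 and 75.5 TPM on RD and 635, 308 and 116 TPM on HFD (log2 change 2.49 ± 0.44, adjusted p = 0.00247), and Mup1 at 183, 120.4 and 140.3 TPM on RD and 1168, 806 and 326 TPM on HFD (log2 change 2.2 ± 0.45, adjusted p = 0.00514). In each of these genes HFD 1 was highest and HFD 3 was lowest but still above all RD libraries.

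Mup12 was at 69.2, 39.5 and 51.4 TPM on RD and 214, 253 and 137 TPM on HFD (log2 change 1.89 ± 0.38, adjusted p = 0.00519), and with Mup7, Mup21 and Mup1 it kept its call in all leave-outs. Mup9, Mup11 and Cyp7b1, an oxysterol hydroxylase with higher expression in males, were the other 3. Cyp7b1 was at 23.6, 17.4 and 13.9 TPM on RD and 181, 67.7 and 26.9 TPM on HFD (log2 change 1.9 ± 0.51, adjusted p = 0.0254) and lost its call without RD 2, RD 3, HFD 1 or HFD 2 (adjusted p up to 0.163). Mup9 was at 89.9, 21 and 79.1 TPM on RD and 1643, 617 and 126 TPM on HFD (log2 change 3.22 ± 0.91, adjusted p = 0.0308) and lost its call without RD 2, RD 3, HFD 1 or HFD 2 (adjusted p up to 0.179). Mup11 was at 4313, 3153 and 3145 TPM on RD and 16790.2, 10646 and 4564 TPM on HFD (log2 change 1.42 ± 0.42, adjusted p = 0.0372) and lost its call without RD 1, RD 2, RD 3, HFD 1 or HFD 2 (adjusted p up to 0.210). Mup19, which is not on the list, was at 7743, 1166 and 5900.4 TPM on RD and 36394, 21399 and 9239 TPM on HFD (log2 change 2.36 ± 0.74, adjusted p = 0.0493), lost its call without RD 2, RD 3, HFD 1 or HFD 2 (adjusted p up to 0.269) and was not called after scaling (adjusted p = 0.0538). Mup copies are nearly identical, so the division of reads among them is uncertain.

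The HFD libraries also differed among themselves in sex-biased genes. HFD 1 was the highest HFD library for 24 of the 30 male-biased genes and for 879 of all 10551 tested genes. HFD 3 was the lowest for 26 of the 30 and for 915 of all tested genes. HFD 3 was the highest for 16 of 18 female-biased genes, but also for 6585 of all tested genes, so that order was not particular to them. The count of male-biased genes that rose was 13 without HFD 3, 6 without RD 1 and 4 without each of the other 4 libraries, and 9 rose after scaling. The male-biased genes that fell were Cyp2f2, a cytochrome P450, at 716, 683 and 743 TPM on RD and 361, 449.7 and 493 TPM on HFD (log2 change -0.73 ± 0.13, adjusted p = 0.00209), and Gstp1, a pi-class glutathione transferase, at 784, 1065 and 1198 TPM on RD and 865, 619 and 331 TPM on HFD (log2 change -0.83 ± 0.26, adjusted p = 0.0492). HFD 1 lay inside the RD range of Gstp1, which lost its call without RD 2, RD 3, HFD 2 or HFD 3 (adjusted p up to 0.187). Established male genes such as Cyp2d9, a steroid hydroxylase, were not called: Cyp2d9 was at 428, 534 and 473 TPM on RD and 705, 829 and 536 TPM on HFD (log2 change 0.51 ± 0.16, adjusted p = 0.0542) and was called after scaling (adjusted p = 0.0178) and without Mup and mitochondrial transcripts. Elovl3, an elongase of very long fatty acids, was at 44.3, 41.2 and 46.9 TPM on RD and 32.2, 44.3 and 28.3 TPM on HFD (log2 change -0.35 ± 0.32, adjusted p = 0.540).

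Among female-biased genes the largest falls were in a pair of Cyp2c genes on chromosome 19. Cyp2c40 (chr19:39767071-39812814, minus strand) was at 150.2, 54.7 and 141 TPM on RD and 2.56, 0.941 and 2.52 TPM on HFD (log2 change -5.2 ± 0.61, adjusted p = 3.97e-05), the largest fall among the genes named here. Cyp2c69, its close copy (chr19:39842814-39886799, minus strand), was at 53.1, 16 and 40.6 TPM on RD and 0.533, 0.183 and 0.855 TPM on HFD (log2 change -4.49 ± 0.36, adjusted p = 3.70e-07). Both kept their call in all leave-outs and had no overlap. Cyp2a4, a steroid hydroxylase, was at 233, 232 and 227 TPM on RD and 22.7, 6.22 and 27.7 TPM on HFD (log2 change -3.77 ± 1.17, adjusted p = 0.0475) and lost its call without RD 1, RD 2, RD 3, HFD 1 or HFD 2 (adjusted p up to 0.152) and after scaling (adjusted p = 0.0554). Its near-identical copy Cyp2a5 was at 1231, 1399.6 and 716 TPM on RD and 326, 483 and 771 TPM on HFD (log2 change -1.11 ± 0.35, adjusted p = 0.0487), with HFD 3 inside the RD range, and lost its call without RD 1, RD 2, HFD 1 or HFD 2 (adjusted p up to 0.236). Fmo2, a flavin monooxygenase, was the only female-biased gene that rose, at 7.59, 6.39 and 8.38 TPM on RD and 9.78, 13.8 and 23.6 TPM on HFD (log2 change 0.91 ± 0.28, adjusted p = 0.0431), and lost its call without RD 1, RD 2, RD 3, HFD 2 or HFD 3 (adjusted p up to 0.154). The other lower members were Cyp2b10, described above, and Slc22a26, an organic anion transporter, at 6.37, 3.7 and 7.88 TPM on RD and 0.506, 0.383 and 4.54 TPM on HFD (log2 change -1.58 ± 0.34, adjusted p = 0.00800). Slc22a26 lost its call without RD 3 or HFD 1 (adjusted p up to 0.0618). After scaling 4 female-biased genes fell and 1 rose. Sult2a2, a female-biased sulfotransferase, was listed at 0 in 4 of the 6 libraries and was not tested.

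**Figure D3:**
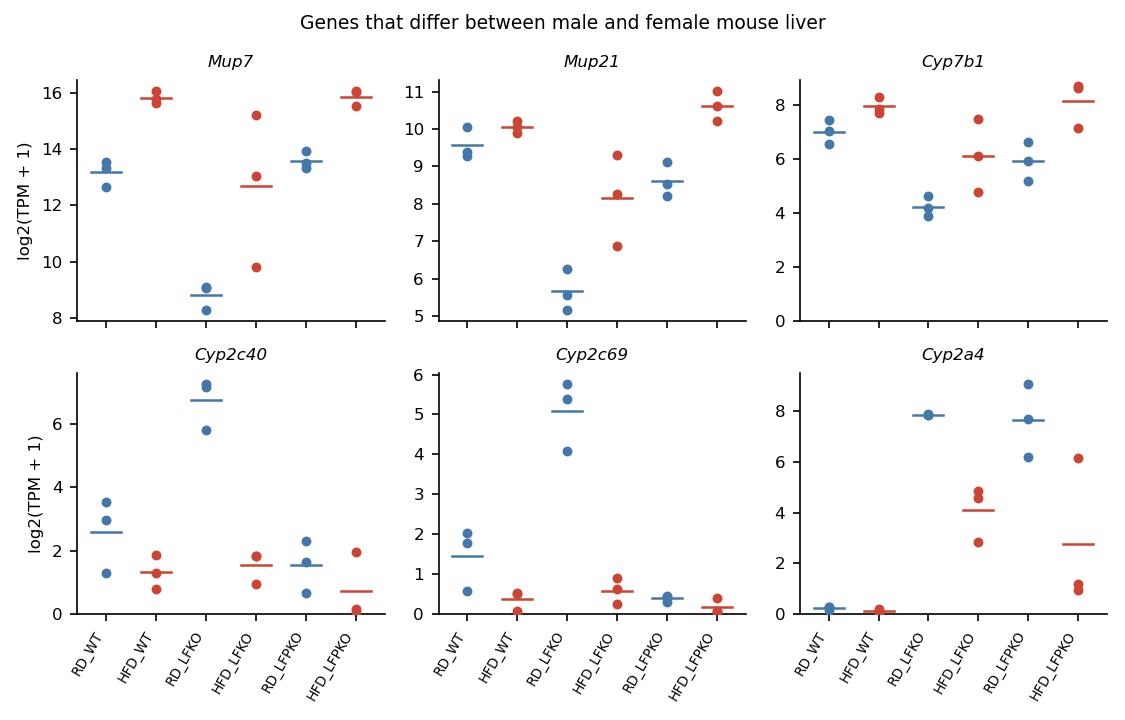
log2(TPM + 1) of 6 sex-biased liver genes in WT, LFKO and LFPKO livers on RD (blue) and HFD (red), with 3 libraries a group and a bar at the mean. Cyp2c40, Cyp2c69 and Cyp2a4 are high in RD_LFKO livers and far lower in HFD_LFKO livers, where Mup7, Mup21 and Cyp7b1 are higher and the 3 libraries lie apart.

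Most cholesterol synthesis and uptake genes, the targets of SREBP2, fell. Of 26 tested members 18 were lower, none was higher and the median was -0.77, against 8.34% of tested genes lower and a median of -0.11. Promoters of 4 of the called members that kept their call in all leave-outs are shown first, from 250 bases before to 50 bases after the RefSeq start (GRCm38.p6), to set members of the pathway with and without the searched letters beside each other. Capitals mark matches of 2 motifs on either strand: CCAAT, the NF-Y box, and TCACNCCAC, the sterol element bound by SREBP. These genes were chosen after the search.
Acat2 (chr17:12960676-12960975 on the minus strand): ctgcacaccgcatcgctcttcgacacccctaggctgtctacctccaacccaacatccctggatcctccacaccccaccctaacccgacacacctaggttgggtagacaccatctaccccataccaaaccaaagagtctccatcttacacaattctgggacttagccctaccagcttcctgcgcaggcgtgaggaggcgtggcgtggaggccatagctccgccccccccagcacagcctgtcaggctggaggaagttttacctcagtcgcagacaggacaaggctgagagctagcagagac
Mvd (chr8:122443373-122443672 on the minus strand): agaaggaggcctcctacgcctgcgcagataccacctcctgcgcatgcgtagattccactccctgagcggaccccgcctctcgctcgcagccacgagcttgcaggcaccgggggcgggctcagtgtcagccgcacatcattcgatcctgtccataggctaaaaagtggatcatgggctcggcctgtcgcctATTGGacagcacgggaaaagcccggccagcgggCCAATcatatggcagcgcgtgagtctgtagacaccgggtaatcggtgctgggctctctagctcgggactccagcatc
Insig1 (chr5:28071162-28071461 on the plus strand): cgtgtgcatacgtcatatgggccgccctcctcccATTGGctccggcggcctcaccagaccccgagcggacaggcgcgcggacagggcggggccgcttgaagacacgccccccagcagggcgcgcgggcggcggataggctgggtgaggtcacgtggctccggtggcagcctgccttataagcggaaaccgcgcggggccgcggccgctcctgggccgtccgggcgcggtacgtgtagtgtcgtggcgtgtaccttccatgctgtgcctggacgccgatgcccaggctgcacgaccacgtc
Hmgcs1 (chr13:119690101-119690400 on the plus strand): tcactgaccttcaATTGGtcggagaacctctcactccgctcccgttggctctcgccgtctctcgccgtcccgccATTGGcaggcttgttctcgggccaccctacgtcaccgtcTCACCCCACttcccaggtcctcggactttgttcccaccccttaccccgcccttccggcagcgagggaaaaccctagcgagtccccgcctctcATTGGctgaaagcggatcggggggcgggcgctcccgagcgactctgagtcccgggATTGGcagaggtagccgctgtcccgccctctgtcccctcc

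Hmgcs1 alone held TCACNCCAC, with the match 137 bases before the start, among 13 of the 18 called genes that the promoter table covers. That motif stands in 1.24% of all 32851 promoters of the table. CCAAT stood in 12 of the 13, all but Acat2, and in 37.4% of all promoters of the table or 43.4% of those of tested genes. The motifs do not overlap in their letters. A match is a description of this window, and no match says only that these letters are not in it. Fdps and Sqle were among the called genes that were not matched.

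Several early steps of the pathway were among them. Acat2, which joins acetyl-CoA units, was at 46.5, 44.9 and 51.4 TPM on RD and 19.1, 24.8 and 26.9 TPM on HFD (log2 change -0.99 ± 0.18, adjusted p = 0.00218). Hmgcs1, the cytosolic HMG-CoA synthase, was at 169, 155 and 188 TPM on RD and 55.2, 56.7 and 78.3 TPM on HFD (log2 change -1.43 ± 0.31, adjusted p = 0.00808). The mevalonate steps followed: Pmvk, phosphomevalonate kinase, was at 45.9, 46.4 and 45.4 TPM on RD and 18.7, 21.8 and 24.5 TPM on HFD (log2 change -1.06 ± 0.23, adjusted p = 0.00791), and Mvd, mevalonate diphosphate decarboxylase, at 11.3, 14.1 and 12.4 TPM on RD and 4.73, 4.81 and 5.07 TPM on HFD (log2 change -1.21 ± 0.23, adjusted p = 0.00320). Fdps, which makes farnesyl diphosphate, was at 225, 212 and 266 TPM on RD and 88.5, 106 and 101 TPM on HFD (log2 change -1.24 ± 0.25, adjusted p = 0.00533). These 5 called genes had every HFD library below every RD library.

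A regulator and a late step were also called. Insig1, which holds SREBP in the endoplasmic reticulum and is itself an SREBP target, was at 124, 126 and 144 TPM on RD and 66.9, 64.6 and 68.6 TPM on HFD (log2 change -0.97 ± 0.19, adjusted p = 0.00465). Tm7sf2, a sterol reductase of the late pathway, was at 117, 121 and 125 TPM on RD and 52.1, 57.4 and 70.3 TPM on HFD (log2 change -1.01 ± 0.19, adjusted p = 0.00326). Srebf2, which encodes SREBP2, was at 16.9, 17.2 and 16.6 TPM on RD and 10.6, 14 and 17.1 TPM on HFD (log2 change -0.29 ± 0.16, adjusted p = 0.267) and was not called. The intestinal cholesterol transporter gene Npc1l1 was listed at 0 in all 3 HFD libraries and at no more than 0.0317 TPM on RD.

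Of the 18 lower members 8 kept their call in all leave-outs, among them Acat2, Hmgcs1, Pmvk, Mvd, Fdps, Insig1 and Tm7sf2. The count was 8 without HFD 1, 9 without each RD library, 12 without HFD 2 and 17 without HFD 3. After scaling 14 were called and without Mup and mitochondrial transcripts 10. In WT livers 25 of the 26 fell on HFD (29.8% of all tested genes fell there), with a median of -1.62, and 22 after scaling. The difference between the LFKO and WT diet responses was called by limma for none of the 26, while 16 had an unadjusted p under 0.05. Of all 10551 tested genes 1292 had such a p for this difference, a smaller share, and 1 was called. For Fdps, whose WT libraries were at 153, 334 and 199 TPM on RD and 37.5, 20.5 and 29.5 TPM on HFD, it was 1.65 ± 0.36 on the log2 scale (adjusted p = 0.0970).

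**Figure D4:**
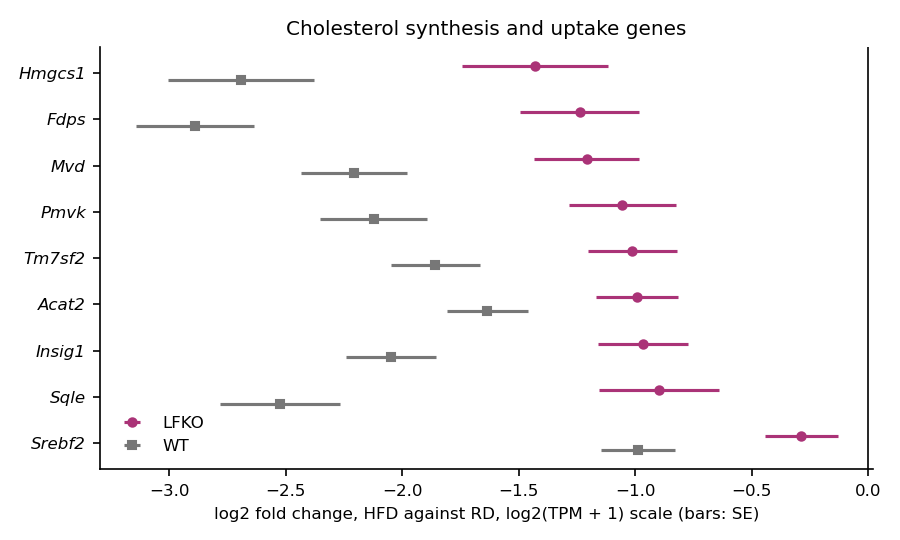
log2 fold change of HFD against RD (horizontal, bars are SE) for the genes of cholesterol synthesis and uptake that the text names, in LFKO livers (circles) and WT livers (squares). All the circles lie to the left of 0, and the difference between the genotypes passed the test for none of these genes.

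Fatty acid synthesis genes, which insulin drives through SREBP1c, fell in part. Of 23 tested members 6 were lower and none was higher, with a median of -0.38 (8.34% of all tested genes were lower, with a median of -0.11), and 6 were lower and none higher after scaling. Fasn, fatty acid synthase, was at 75.6, 96.1 and 117 TPM on RD and 33.4, 51.2 and 40.3 TPM on HFD (log2 change -1.19 ± 0.27, adjusted p = 0.0107) and lost its call without RD 3 or HFD 1 (adjusted p up to 0.0674). Acss2, which makes acetyl-CoA from acetate, was at 96, 75.5 and 90.3 TPM on RD and 27.2, 39 and 43.5 TPM on HFD (log2 change -1.25 ± 0.28, adjusted p = 0.00965) and lost its call without HFD 1 (adjusted p = 0.0674). Me1, the malic enzyme that supplies NADPH, was at 167, 175 and 210.1 TPM on RD and 49.7, 79.4 and 82.9 TPM on HFD (log2 change -1.4 ± 0.38, adjusted p = 0.0271) and lost its call without RD 1, RD 2, RD 3 or HFD 1 (adjusted p up to 0.136). None of the 6 kept its call in all leave-outs, the count was 0 without HFD 1, 3 without RD 1, 4 without RD 2, 2 without RD 3, 5 without HFD 2 and 8 without HFD 3. Scd1, the stearoyl-CoA desaturase, was at 1353, 1667 and 2698 TPM on RD and 292, 611 and 784 TPM on HFD (log2 change -1.81 ± 0.66, adjusted p = 0.0881): its groups did not overlap, and it was not called. Srebf1, which encodes SREBP1c, was at 71.6, 67.1 and 89.1 TPM on RD and 46.4, 114 and 114 TPM on HFD (log2 change 0.16 ± 0.33, adjusted p = 0.802), with HFD 1 below and HFD 2 and HFD 3 above the RD libraries.

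Genes of mitochondrial fatty acid oxidation gave no call. By limma none of 23 tested members was called, 8 had an unadjusted p under 0.05, and the median was -0.18. Of all 10551 tested genes 2603 had such a p, with a median of -0.11. After scaling again none was called, and without HFD 3, 5 of them fell (12.1% of all tested genes fell then). Cpt1a, which admits fatty acids to mitochondria, was at 152, 153 and 158 TPM on RD and 139, 152 and 176 TPM on HFD (log2 change 0.0 ± 0.12, adjusted p = 0.994), with overlapping groups. Among 24 peroxisomal genes 2 fell, no larger a share than the 8.34% of all tested genes. They were Crot and Abcd3, both of which lost their call without RD 1, RD 2, RD 3 or HFD 1 (adjusted p up to 0.143 and 0.234). The count was 0 without each of these 4, 1 without HFD 2 and 6 without HFD 3, when 12.1% of all tested genes fell. Among 11 genes of fatty acid omega-hydroxylation 1 fell, Cyp4a31, at 16.3, 17.6 and 17.4 TPM on RD and 6.11, 10.001 and 12.9 TPM on HFD (log2 change -0.81 ± 0.19, adjusted p = 0.0136), which lost its call without RD 2, RD 3 or HFD 1 (adjusted p up to 0.0909). Cyp4a14, a PPARα target of that group, was at 756, 783 and 608 TPM on RD and 126, 524 and 749.9 TPM on HFD (log2 change -0.95 ± 0.70, adjusted p = 0.428), spread over a wide range within HFD.

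Among 25 other PPARα targets 4 fell and 1 rose (8.34% and 1.11% of all tested genes did). Without HFD 3, 7 fell (12.1% of all tested genes fell then). Pdk4, the kinase that shuts off pyruvate oxidation in fasting, was at 5.77, 4.72 and 4.66 TPM on RD and 0.632, 0.923 and 1.08 TPM on HFD (log2 change -1.69 ± 0.34, adjusted p = 0.00487). Cyp8b1, the sterol 12-alpha-hydroxylase of bile acid synthesis, was at 100.4, 149 and 92.3 TPM on RD and 26.9, 33.9 and 39.2 TPM on HFD (log2 change -1.73 ± 0.36, adjusted p = 0.00579). Plin2, which coats lipid droplets, was at 502, 404 and 539.5 TPM on RD and 147, 218 and 246 TPM on HFD (log2 change -1.26 ± 0.27, adjusted p = 0.00662) and lost its call without HFD 1 (adjusted p = 0.0523). Fabp2, a fatty acid binding protein better known from the intestine, was the riser, at 46.7, 43.9 and 52 TPM on RD and 75.3, 94 and 91.1 TPM on HFD (log2 change 0.85 ± 0.20, adjusted p = 0.0125), and lost its call without RD 2 (adjusted p = 0.0597). After scaling again 4 fell and 1 rose. Fgf21, the fourth gene that fell, is described with the liver hormones. Cd36, a fatty acid carrier, was at 81.7, 73.5 and 69.9 TPM on RD and 11.6, 36.6 and 61.2 TPM on HFD (log2 change -1.3 ± 0.41, adjusted p = 0.0504). It just missed the threshold, and HFD 3 lay nearest to the RD range.

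A few known FoxO1 and insulin-signalling targets were called in livers without FoxO1. Of 30 tested members 1 rose and 5 fell, with a median of -0.16, while 1.11% of all tested genes rose and 8.34% fell. The number that fell was 1 without RD 2, 2 without HFD 1 and 3 to 6 without the others, and 2 rose without RD 2. The riser was Eif4ebp3, an inhibitor of cap-dependent translation related to the mTORC1 substrate Eif4ebp1. Eif4ebp3 was at 9.85, 7.17 and 8.4 TPM on RD and 85.7, 57.1 and 57.6 TPM on HFD (log2 change 2.82 ± 0.32, adjusted p = 2.49e-05), kept its call in all leave-outs and was the third highest of the genes named by the rule. Eif4ebp1 fell, at 38.1, 44.2 and 39.8 TPM on RD and 22.1, 27.1 and 28.8 TPM on HFD (log2 change -0.63 ± 0.14, adjusted p = 0.00997), and lost its call without RD 2 or HFD 1 (adjusted p up to 0.0674). Trib3, an inhibitor of AKT, was at 7.81, 9.93 and 7.54 TPM on RD and 1.43, 3.82 and 3.47 TPM on HFD (log2 change -1.32 ± 0.32, adjusted p = 0.0133) and lost its call without RD 2 or HFD 1 (adjusted p up to 0.0935). The other 3 that fell were Gadd45b, which lost its call without RD 2 (adjusted p = 0.0894), Sgk2, which lost it without RD 1, RD 2, RD 3 or HFD 1 (up to 0.158), and Trib1, which lost it without RD 1, RD 3, HFD 1 or HFD 2 (up to 0.179). After scaling 4 members fell and 1 rose.

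The gluconeogenic genes were not called. G6pc, glucose-6-phosphatase, was at 61.3, 75.3 and 109 TPM on RD and 84.5, 51.2 and 37.5 TPM on HFD (log2 change -0.54 ± 0.35, adjusted p = 0.356), and Pck1, phosphoenolpyruvate carboxykinase, at 628, 836 and 788 TPM on RD and 1153, 713 and 571 TPM on HFD (log2 change 0.06 ± 0.30, adjusted p = 0.928). Both had overlapping groups in which HFD 1 was the highest HFD library. Igfbp1, a secreted binding protein and a standard FoxO1 target, was at 45.2, 41 and 70.5 TPM on RD and 44.7, 6.32 and 6.78 TPM on HFD (log2 change -1.91 ± 0.62, adjusted p = 0.0546), with HFD 1 inside the RD range and the other HFD libraries far below it.

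Secreted liver hormones were lower in several cases. Of 24 tested members 7 fell and none rose, with a median of -0.33 (8.34% of all tested genes fell). Fgf21, a fasting and stress hormone, was at 6.15, 11.6 and 5.93 TPM on RD and 1.13, 0.896 and 1.65 TPM on HFD (log2 change -1.96 ± 0.25, adjusted p = 0.000105) and kept its call in all leave-outs. Angptl8, which insulin and feeding induce and which limits lipoprotein lipase, was at 55.8, 78.4 and 60.4 TPM on RD and 7.39, 14.1 and 20.3 TPM on HFD (log2 change -2.23 ± 0.49, adjusted p = 0.00808) and lost its call without HFD 1 (adjusted p = 0.0612). Gdf15, a stress hormone that lowers appetite, was at 10.8, 10.5 and 7.15 TPM on RD and 2.42, 0.419 and 1.7 TPM on HFD (log2 change -2.13 ± 0.62, adjusted p = 0.0361) and lost its call without RD 1, RD 2, RD 3, HFD 1 or HFD 2 (adjusted p up to 0.129). For all 3 the HFD libraries lay below the RD libraries. Inhbe, which encodes a subunit of activin E, was at 30.9, 28.6 and 25.8 TPM on RD and 8.15, 14.8 and 13.9 TPM on HFD (log2 change -1.18 ± 0.28, adjusted p = 0.0131) and lost its call without RD 2 or HFD 1 (adjusted p up to 0.0896). The count was 2 without HFD 1, 2 without RD 2, 3 without RD 3 and 4 to 8 without the others. After scaling 5 fell and Igf1 rose (adjusted p = 0.0139); Igf1, the growth factor induced by growth hormone, was at 469, 456 and 545 TPM on RD and 521, 563 and 600.1 TPM on HFD (log2 change 0.2 ± 0.11, adjusted p = 0.267).

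Some immediate early genes, transcription factors induced within minutes of a stimulus, fell on HFD. Of 13 tested members 5 fell and none rose, with a median of -0.89, and 10 had all HFD libraries below all RD libraries (23.6% of tested genes did). Jun was at 25.1, 18 and 20.1 TPM on RD and 3.55, 2.97 and 7.7 TPM on HFD (log2 change -2.02 ± 0.34, adjusted p = 0.00179), and Junb at 44.4, 39.6 and 44.5 TPM on RD and 8.46, 9.02 and 16.5 TPM on HFD (log2 change -1.89 ± 0.39, adjusted p = 0.00560), and both kept their call in all leave-outs. Egr1 was at 20.9, 10.2 and 35.8 TPM on RD and 6.14, 1.63 and 6.29 TPM on HFD (log2 change -2.01 ± 0.54, adjusted p = 0.0241) and lost its call without RD 1, RD 3 or HFD 2 (adjusted p up to 0.126). Jund and Atf3 were the other 2. Both lost their call without RD 2, RD 3, HFD 1 or HFD 2 (adjusted p up to 0.109 and 0.158), and Atf3 also without RD 1 and after scaling (adjusted p = 0.0527). The count was 2 without RD 3, 2 without HFD 2, 3 without RD 1, RD 2 or HFD 1, and 5 without HFD 3. In WT livers limma called none of the 13, and 2 had an unadjusted p under 0.05 (4884 of all 10551 tested genes did). Jun was there at 6.29, 3.53 and 4.98 TPM on RD and 8.96, 3.01 and 5.03 TPM on HFD (log2 change 0.1 ± 0.34, adjusted p = 0.827), and the difference of its diet responses was -2.12 ± 0.49 (adjusted p = 0.112). In LFPKO livers 4 of the 13 fell and none rose, with a median of -0.51 (24.9% of all tested genes fell there). Jun was at 20, 10.5 and 22.6 TPM on RD and 5.98, 7.87 and 6.96 TPM on HFD in LFPKO livers (log2 change -1.18 ± 0.34, adjusted p = 0.0163). After scaling 2 fell there and Jun was not called (adjusted p = 0.0676).

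**Figure D5:**
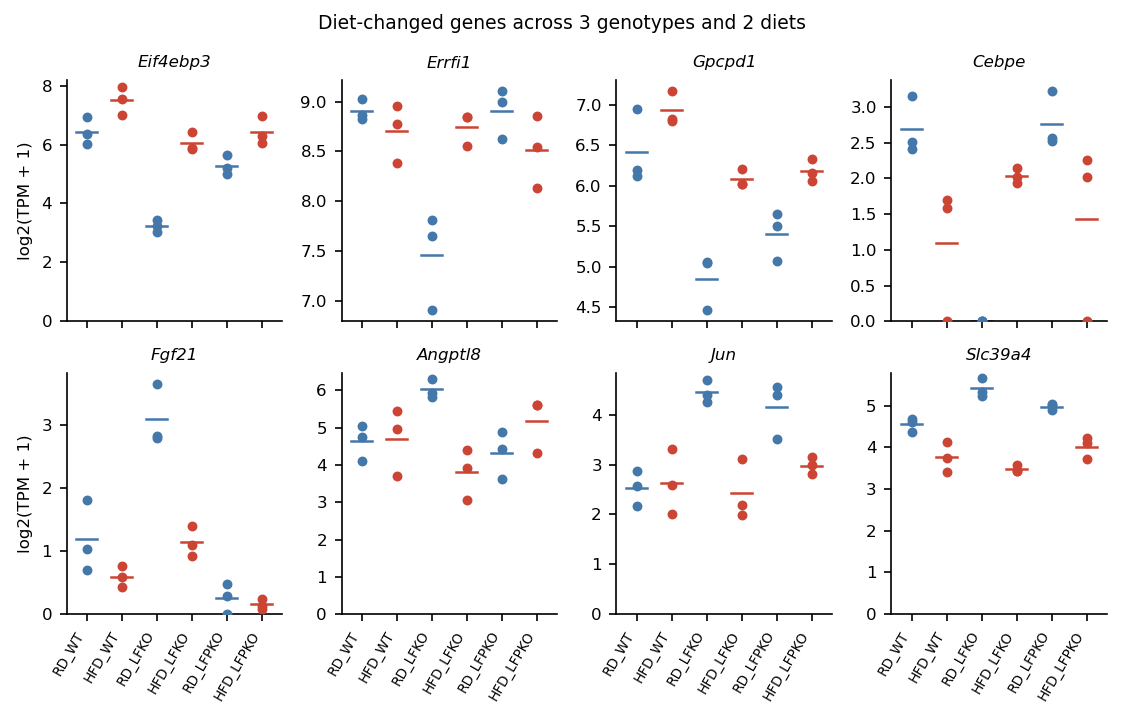
log2(TPM + 1) of 8 genes in WT, LFKO and LFPKO livers on RD (blue) and HFD (red), 3 libraries a group with a bar at the mean. In LFKO livers Eif4ebp3, Errfi1, Gpcpd1 and Cebpe are higher on HFD and Fgf21, Angptl8, Jun and Slc39a4 are lower, with no overlap between the diets.

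Most ribosomal protein genes fell on HFD. Of 27 tested members 21 fell and none rose, with a median of -0.56, and 26 had all HFD libraries below all RD libraries. Of all tested genes 8.34% fell, and 23.6% had all HFD libraries below all RD libraries. Rpl32, of the large subunit, was at 429.8, 467 and 450.5 TPM on RD and 285, 299 and 294 TPM on HFD (log2 change -0.62 ± 0.11, adjusted p = 0.00190). The count was 12 without RD 2 or HFD 1, 13 without RD 3, 18 without HFD 2 and 20 without RD 1 or HFD 3, and 12 members were kept in all leave-outs. After scaling 19 fell. Ribosomal proteins have many pseudogenes, so the division of reads is uncertain.

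Many nuclear genes of the respiratory chain fell, by a count that depended on the libraries used. Of 37 tested nuclear members 19 fell and none rose, with a median of -0.39, and 17 fell after scaling. Of all tested genes 8.34% fell, with a median of -0.11, and 6.59% fell after scaling. Ndufa4 was at 748, 799 and 758 TPM on RD and 474, 507 and 515 TPM on HFD (log2 change -0.62 ± 0.13, adjusted p = 0.00575), and Atp5b, the catalytic beta subunit of ATP synthase, at 859, 922 and 921 TPM on RD and 555, 646 and 704 TPM on HFD (log2 change -0.51 ± 0.11, adjusted p = 0.00661). The count was 3 without HFD 1, 5 without RD 2, 9 without RD 3, 11 without HFD 2, 13 without RD 1 and 21 without HFD 3, and 3 members were kept in all leave-outs. Of 13 transcripts of the mitochondrial genome 2 rose and none fell, with a median of 0.36 (1.11% of all tested genes rose). mt-Nd5 was at 3979, 3729 and 3905 TPM on RD and 5736, 5779 and 5958 TPM on HFD (log2 change 0.59 ± 0.16, adjusted p = 0.0287) and mt-Cytb at 12791, 11880.0 and 12156 TPM on RD and 17678, 15867 and 16311 TPM on HFD (log2 change 0.44 ± 0.13, adjusted p = 0.0346), and both lost their calls without RD 1, RD 2, RD 3, HFD 1 or HFD 2 (adjusted p up to 0.101 and 0.134). After scaling 4 rose.

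Acute phase genes, secreted by hepatocytes in inflammation, moved in both directions. Of 27 tested members 3 rose and 1 fell, and after scaling 5 rose and 1 fell. Of all tested genes 1.11% rose and 8.34% fell, and after scaling 4.28% rose and 6.59% fell. Saa4, the constitutive serum amyloid A of lipoproteins, was at 145, 133 and 127 TPM on RD and 596, 289 and 289 TPM on HFD (log2 change 1.44 ± 0.27, adjusted p = 0.00331), and Serpina3n, a protease inhibitor, at 183, 172 and 177 TPM on RD and 287, 261 and 276 TPM on HFD (log2 change 0.63 ± 0.12, adjusted p = 0.00315). Orm1, alpha-1-acid glycoprotein, fell, at 910.3, 910.3 and 1312 TPM on RD and 491, 501 and 329.9 TPM on HFD (log2 change -1.25 ± 0.18, adjusted p = 0.000527). These 3 kept their call in all leave-outs, and Steap4, a metalloreductase, did not: it was at 31.5, 35 and 34.5 TPM on RD and 75, 57.6 and 61.2 TPM on HFD (log2 change 0.91 ± 0.24, adjusted p = 0.0237) and lost its call without RD 1, RD 2, RD 3 or HFD 1 (adjusted p up to 0.111). The inducible Saa1 was at 38.4, 59.8 and 88.5 TPM on RD and 277, 151 and 59.3 TPM on HFD (log2 change 1.19 ± 0.65, adjusted p = 0.268), with HFD 3 inside the RD range. Serpina4-ps1, a transcribed pseudogene chosen after its values were seen, was at 7.63, 4.8 and 18.5 TPM on RD and 188, 88.4 and 69.4 TPM on HFD (log2 change 3.42 ± 0.75, adjusted p = 0.00837) and lost its call without RD 2 or HFD 1 (adjusted p up to 0.0569).

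A few metal-handling genes fell. Of 16 tested members 3 fell and none rose (8.34% of all tested genes fell), and after scaling 4 fell and 1 rose. Without HFD 3, 6 fell (12.1% of all tested genes fell then). Slc39a4, the zinc importer ZIP4, was at 37, 39.3 and 50.2 TPM on RD and 9.77, 9.84 and 11 TPM on HFD (log2 change -1.94 ± 0.18, adjusted p = 1.83e-06), with little spread within either diet. Ftl1, the ferritin light chain, was at 5382, 6225 and 6334 TPM on RD and 2256, 2953 and 3358 TPM on HFD (log2 change -1.08 ± 0.19, adjusted p = 0.00210). Trf, transferrin, was at 11687, 13243 and 13399 TPM on RD and 8674, 9507 and 9186 TPM on HFD (log2 change -0.48 ± 0.11, adjusted p = 0.00951) and lost its call without RD 2 or RD 3 (adjusted p up to 0.0532). Mt1, metallothionein 1, was at 215, 229.6 and 268 TPM on RD and 273, 173 and 214 TPM on HFD (log2 change -0.13 ± 0.49, adjusted p = 0.901), and Hamp, hepcidin, at 2982, 1485 and 796 TPM on RD and 1616, 3109 and 2625 TPM on HFD (log2 change 0.63 ± 1.46, adjusted p = 0.826). Neither was called and both had overlapping groups.

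Clock, bile acid and interferon genes had few calls each. Of 21 clock genes Nr1d1, the repressor REV-ERBα, fell, at 71.5, 63.8 and 70.6 TPM on RD and 12.5, 24.6 and 30.8 TPM on HFD (log2 change -1.65 ± 0.31, adjusted p = 0.00302), and Per2 rose, at 3.27, 3.33 and 3.49 TPM on RD and 5.2, 6.89 and 7.24 TPM on HFD (log2 change 0.76 ± 0.21, adjusted p = 0.0309). Per2 lost its call without RD 1, RD 2, RD 3, HFD 2 or HFD 3 (adjusted p up to 0.0934), and the labels give no time of day. Of 25 bile acid genes Slco1a4, a bile acid and organic anion importer, Cyp8b1 and Abcc3 fell and Cyp7b1 rose. Slco1a4 was at 38.5, 58.8 and 39.2 TPM on RD and 9.52, 8.96 and 20.1 TPM on HFD (log2 change -1.81 ± 0.36, adjusted p = 0.00440). Cyp7a1, the rate-limiting enzyme of bile acid synthesis, was at 42.8, 51.5 and 32.5 TPM on RD and 39.1, 56.6 and 95.8 TPM on HFD (log2 change 0.51 ± 0.66, adjusted p = 0.678) and was not called. Of 31 interferon-response genes Bst2, the virus-tethering protein tetherin, fell, at 121, 151 and 170.4 TPM on RD and 57, 72 and 73.4 TPM on HFD (log2 change -1.11 ± 0.15, adjusted p = 0.000196), and Gbp7, a guanylate-binding protein, rose, at 2.56, 3.26 and 3.61 TPM on RD and 3.15, 9.11 and 7.56 TPM on HFD (log2 change 0.79 ± 0.23, adjusted p = 0.0361), with HFD 1 inside the RD range. Gbp7 lost its call without RD 1, RD 2, RD 3, HFD 2 or HFD 3 (adjusted p up to 0.168). Without HFD 1, 5 interferon-response genes rose, without HFD 3, 6 bile acid genes fell, and without RD 1, RD 2, RD 3 or HFD 2 none of the interferon-response and clock genes rose. Of all tested genes 0.919% rose without HFD 1 and 12.1% fell without HFD 3. After scaling 1 clock gene fell and 3 rose, 3 bile acid genes fell and 2 rose, and 1 interferon-response gene fell and 3 rose. By limma none of 23 nuclear receptor and coactivator genes was called, 2 had an unadjusted p under 0.05, and their median was -0.12. Of all 10551 tested genes 2603 had such a p, with a median of -0.11.

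The other genes with the largest rises had varied roles. Errfi1, which restrains the EGF receptor, was at 200.3, 119 and 223 TPM on RD and 458, 459.6 and 374 TPM on HFD (log2 change 1.29 ± 0.23, adjusted p = 0.00258). Gpcpd1, a glycerophosphocholine phosphodiesterase, was at 32.2, 21 and 31.9 TPM on RD and 72.8, 63.8 and 64.2 TPM on HFD (log2 change 1.23 ± 0.27, adjusted p = 0.00783) and lost its call without RD 2 (adjusted p = 0.0559). Errfi1 kept its call in all leave-outs. Arid5b, a DNA-binding coregulator of lipid metabolism, was at 7.24, 4.65 and 8.54 TPM on RD and 13.4, 18.2 and 35.5 TPM on HFD (log2 change 1.5 ± 0.41, adjusted p = 0.0283) and lost its call without RD 1, RD 2, RD 3, HFD 2 or HFD 3 (adjusted p up to 0.128). Tpm2, a tropomyosin, was at 2.42, 2.66 and 2.66 TPM on RD and 2.77, 8.45 and 12.2 TPM on HFD (log2 change 1.12 ± 0.32, adjusted p = 0.0341), with HFD 1 close to the RD libraries, and lost its call without RD 1, RD 2, RD 3, HFD 2 or HFD 3 (adjusted p up to 0.122). Among the falls, Tubb2a, a beta tubulin, was at 20.5, 52.6 and 50.04 TPM on RD and 5.59, 8.54 and 8.99 TPM on HFD (log2 change -2.18 ± 0.47, adjusted p = 0.00743), with no overlap although RD 1 lay below RD 2 and RD 3.

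Cebpe, a myeloid member of the C/EBP family, was listed at 0 in all 3 RD libraries and was at 3.44, 3.04 and 2.83 TPM on HFD (adjusted p = 0.00967). No fold is given for a gene listed at 0. In WT livers it was at 7.91, 4.7 and 4.35 TPM on RD and 1.99, 0 and 2.23 TPM on HFD, where it fell (adjusted p = 0.0160). The difference between the LFKO and WT diet responses did not pass the test (adjusted p = 0.0567). Moxd1, a monooxygenase, was also listed at 0 in the 3 RD libraries and in 2 HFD libraries.

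Few markers of other cell types were called, where 8.34% of all tested genes fell and 1.11% rose. In bulk liver, fewer cells of a type and less RNA per cell cannot be told apart. Of 19 tested Kupffer cell and macrophage markers 1 fell, Cd9, a tetraspanin that hepatic macrophages share with other cells, at 19.3, 23.8 and 18.1 TPM on RD and 7.36, 9.22 and 8.4 TPM on HFD (log2 change -1.19 ± 0.22, adjusted p = 0.00263). Their summed level was 299.8 to 372 TPM on RD and 229 to 317 TPM on HFD. Of 15 stellate and matrix markers 1 fell, Sparc, a matrix protein, at 23.1, 31.7 and 37.3 TPM on RD and 17.4, 20.6 and 17 TPM on HFD (log2 change -0.69 ± 0.21, adjusted p = 0.0398), which lost its call without RD 2, RD 3, HFD 1, HFD 2 or HFD 3 (adjusted p up to 0.184) and after scaling (adjusted p = 0.0771). Their sum was 242 to 308 TPM on RD and 229 to 252 TPM on HFD.

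None of 15 endothelial markers (sums of 81.0 to 102 and 61.9 to 111 TPM), 4 cholangiocyte markers (60.05 to 98.3 and 91.9 to 103), 6 lymphocyte markers (128 to 251 and 98.3 to 187), 2 neutrophil and monocyte markers (6.47 to 11.3 and 3.03 to 5.60) and 5 red cell markers (507 to 975 and 262 to 1007) was called by limma. At an unadjusted p under 0.05 there were 0, 1, 1, 0 and 0 of them, and 2603 of all 10551 tested genes. Ly6g, the defining neutrophil marker, was at 0 in all 6 libraries. Of 16 hepatocyte markers 4 fell, Cyp3a11, Trf, Ambp and Ttr (8.34% of all tested genes fell). Ambp and Ttr lost their call without RD 2, RD 3, HFD 1 or HFD 2 (adjusted p up to 0.160 and 0.181). The sum of the 16 was 123241 to 134373 TPM on RD and 96092 to 122380 TPM on HFD, the lowest in HFD 1. The part of these shifts in the results was not tested. Of 20 adipose and pancreas markers 11 were at 0 in all 6 libraries, among them Lep, Ins1, Ins2 and Gcg, and Cela1, an elastase gene, rose, at 39.1, 37.7 and 30.5 TPM on RD and 49.2, 61.3 and 62.1 TPM on HFD (log2 change 0.67 ± 0.14, adjusted p = 0.00720), and lost its call without RD 3 (adjusted p = 0.0522).

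WT livers answered the same diet with more calls on the deposited scale. There 111 genes were higher on HFD (1.05%) and 3139 lower (29.8%), with a median of -0.29, and after scaling 391 and 432. Both diet comparisons use separate libraries. Genes called in the same direction in both numbered 674, which is 67.6% of the LFKO calls and 20.7% of the WT calls. After scaling they numbered 290, or 25.3% of the LFKO calls and 35.2% of the WT calls. Of the 997 genes called in LFKO livers 939 had the same sign in WT livers, and 4 were called in opposite directions. Across the 10551 genes, which are not independent and share the depth and composition of each library, the 2 log2 changes had r = 0.52.

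Examples show both kinds of gene. Gstm3 in WT livers was at 64.4, 71.6 and 64.7 TPM on RD and 8.52, 8.92 and 11.4 TPM on HFD (log2 change -2.68 ± 0.31, adjusted p = 1.30e-05) and Csad at 247, 124 and 172 TPM on RD and 23.6, 14 and 23.1 TPM on HFD (log2 change -3.08 ± 0.22, adjusted p = 9.51e-08), and both fell there too. Cyp2c55 was at 4.47, 4.39 and 4.18 TPM on RD and 0.282, 0.3004 and 0.412 TPM on HFD (log2 change -2.01 ± 0.21, adjusted p = 4.16e-06), with RD levels below those of LFKO livers. Errfi1 was at 454, 522 and 465 TPM on RD and 496, 437 and 332 TPM on HFD (log2 change -0.21 ± 0.23, adjusted p = 0.478), already near the level that LFKO livers reached on HFD. Angptl8 was at 25.9, 16.1 and 32 TPM on RD and 30.3, 12 and 42.4 TPM on HFD (log2 change 0.07 ± 0.49, adjusted p = 0.913), and Gdf15 at 0.879, 0.901 and 2.33 TPM on RD and 1.44, 1.002 and 1.04 TPM on HFD (log2 change -0.09 ± 0.62, adjusted p = 0.917). The differences of the diet responses were 1.5 ± 0.33 for Errfi1 (adjusted p = 0.0970) and -2.3 ± 0.69 for Angptl8 (adjusted p = 0.236). Neither passed the test, so the gap between a call in LFKO livers and none in WT livers is not shown to be a difference.

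The test of that difference called 1 gene of 10551 (0.00948%), while 1292 had an unadjusted p under 0.05. It was Cyp2c69, at 0.49, 3.07 and 2.41 TPM on RD and 0.454, 0.414 and 0.0481 TPM on HFD (log2 change -1.09 ± 0.36, adjusted p = 0.0311) in WT livers, and the diet response of LFKO livers less that of WT livers was a log2 difference of -3.4 ± 0.51 (adjusted p = 0.0185). Cyp2c69 was at 53.1, 16 and 40.6 TPM in RD LFKO livers, above all 3 WT libraries on the same diet. On HFD the LFKO libraries (0.533, 0.183 and 0.855 TPM) and WT libraries (0.454, 0.414 and 0.0481 TPM) overlapped. The WT libraries were at no more than 3.07 TPM on RD. A fall as large as in LFKO livers could therefore not be seen there on log2(TPM + 1). For Cyp2a4 the difference of responses was -3.67 ± 1.65 (adjusted p = 0.375) and was not called. Its WT libraries were at no more than 0.202 TPM on both diets, so a fall could hardly be seen there. The LFKO libraries of Cyp2a4 lay above them on RD and also on HFD (22.7, 6.22 and 27.7 TPM). The count of genes with a called difference was 90 without HFD 1, 28 without WT library RD 1 and 0 to 6 without each other library, and 2 after scaling. The call of Cyp2c69 was lost without RD 3, HFD 2 or the WT libraries HFD 1 or HFD 2, with log2 differences from -3.34 to -3.23. It was also lost with a pseudocount of 0.1 (adjusted p = 0.239), without Mup and mitochondrial transcripts (adjusted p = 0.0609) and with only the compared groups in the fit (adjusted p = 0.0702).

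Livers labelled LFPKO, which also lack PPARα by their label, had 142 genes higher on HFD (1.35%) and 2631 lower (24.9%), and after scaling 571 and 840. Cyp3a11 fell there as well, at 4136, 3621 and 4683 TPM on RD and 98.4, 96.1 and 46.7 TPM on HFD (log2 change -5.74 ± 0.52, adjusted p = 1.25e-06), and Csad at 286, 287 and 281 TPM on RD and 47.6, 61.3 and 57.4 TPM on HFD (log2 change -2.35 ± 0.22, adjusted p = 1.70e-06). Eif4ebp3 rose, at 30.7, 36 and 49.3 TPM on RD and 124, 76.8 and 64.9 TPM on HFD (log2 change 1.15 ± 0.32, adjusted p = 0.0125), from a higher RD level than in LFKO livers. Gdf15 fell, at 8.15, 6.9 and 22.9 TPM on RD and 2.15, 1.42 and 1.12 TPM on HFD (log2 change -2.25 ± 0.62, adjusted p = 0.0123). Angptl8 was not called there (log2 change 0.87 ± 0.49, adjusted p = 0.194). Both comparisons, LFPKO and LFKO, have their own libraries, while the test between them uses all 12.

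The difference of the LFPKO and LFKO diet responses was called for 13 genes (0.123%), 3 with a higher and 10 with a lower response in LFPKO livers. Cyp2c69 was at 0.373, 0.342 and 0.237 TPM on RD and 0.322, 0.0321 and 0.0491 TPM on HFD (log2 change -0.22 ± 0.36, adjusted p = 0.679), a difference of 4.27 ± 0.51 (adjusted p = 0.000624), and Cyp2c40 at 3.94, 2.1 and 0.592 TPM on RD and 2.91, 0.107 and 0.0547 TPM on HFD (log2 change -0.81 ± 0.61, adjusted p = 0.345), a difference of 4.39 ± 0.86 (adjusted p = 0.0449). Both genes were already low on RD there, so on log2(TPM + 1) a fall as large as in LFKO livers could not be seen. Fgf21, a PPARα target, was at 0.215, 0.395 and 0 TPM on RD and 0.0968, 0.0607 and 0.186 TPM on HFD (log2 change -0.1 ± 0.25, adjusted p = 0.800), a difference of 1.86 ± 0.35 (adjusted p = 0.0449). Its RD libraries there were already below the pseudocount of 1, so a fall could hardly be seen. On the lower side Errfi1 was at 394, 509 and 551 TPM on RD and 463, 279.7 and 372 TPM on HFD (log2 change -0.4 ± 0.23, adjusted p = 0.211), a difference of -1.69 ± 0.33 (adjusted p = 0.0449), and Etfbkmt, a lysine methyltransferase for the electron transfer flavoprotein, at 31.8, 32.5 and 34.8 TPM on RD and 23.4, 20.5 and 14.2 TPM on HFD (log2 change -0.77 ± 0.21, adjusted p = 0.0103), a difference of -1.51 ± 0.29 (adjusted p = 0.0449). Etfbkmt in LFKO livers was at 24.1, 26.9 and 27.4 TPM on RD and 62.2, 39.98 and 35.3 TPM on HFD (log2 change 0.75 ± 0.21, adjusted p = 0.0278) and lost that call without RD 1, RD 2, RD 3 or HFD 1 (adjusted p up to 0.169).

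The remaining named genes with a lower response in LFPKO livers were Cib3, Cebpe, Rasgef1b and Pik3c2a. Cib3, a calcium and integrin binding protein, was at 94.1, 52.2 and 148 TPM on RD and 3.4, 18.9 and 9.08 TPM on HFD (log2 change -3.25 ± 0.48, adjusted p = 0.000178) in LFPKO and at 4.43, 8.62 and 7.64 TPM on RD and 11.8, 9.93 and 7.89 TPM on HFD (log2 change 0.49 ± 0.48, adjusted p = 0.574) in LFKO livers. Rasgef1b, an exchange factor for Ras-family proteins, was at 9.44, 17.6 and 15.3 TPM on RD and 6.86, 2.4 and 2.53 TPM on HFD (log2 change -1.69 ± 0.36, adjusted p = 0.00233) in LFPKO and at 2.41, 3.39 and 2.25 TPM on RD and 5.33, 7.85 and 5.94 TPM on HFD (log2 change 1.0 ± 0.36, adjusted p = 0.0847) in LFKO livers. Pik3c2a, a class II phosphoinositide 3-kinase, was at 8.84, 9.74 and 14.1 TPM on RD and 4.14, 4.5 and 6.27 TPM on HFD (log2 change -0.98 ± 0.17, adjusted p = 0.000480) and at 4.55, 5.11 and 4.46 TPM on RD and 5.26, 7.34 and 5.31 TPM on HFD (log2 change 0.28 ± 0.17, adjusted p = 0.319). In LFKO livers these 3 were not called. The 13 calls became 10 after scaling and 1 to 12 without single libraries of the 4 groups. The call of Cyp2c69 held without each of the 12 libraries and after scaling, and was lost with a pseudocount of 0.1 (adjusted p = 0.0896). The other 8 named genes were called without at most 2 of the 12 libraries, and Cib3 and Pik3c2a alone among them were called after scaling (adjusted p = 0.0429 for each).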

How the data were processed

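Per the labels' protocols, liver RNA was taken up in Trizol and made into TruSeq Stranded mRNA libraries. The authors deposited gene-level TPM of 24 libraries. Per the submitters' processing notes, kallisto was used, with the builds mm10 and GRCm38; its version and the annotation: not given in the sources used here. TPM keep no depth, so precision was judged from the spread of 3 libraries a group. Groups come from the labels.

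TPM were used as deposited, as log2(TPM + 1), for 10551 genes with a mean of at least 1 TPM. limma 3.58.1 (R 4.3.3) was fitted with a mean per group over 8 groups (16 residual degrees of freedom), with variances moderated along a trend, no replicate block and Benjamini-Hochberg adjustment within each of 5 comparisons. Tests are two-sided. With 3 libraries against 3, exact permutation has a smallest p of 0.1 and was not used.

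Named genes were Foxo1, then the 15 highest and 15 lowest changes among called genes without overlap between groups, with at least 5 TPM and no predicted or clone name, up to 6 each way for the differences of responses, and list members, of which up to 6 with the smallest adjusted p, those against the list's direction, those at 0 and others for their values. The comparison, the 49 gene lists (970 genes) and the rule were chosen with earlier results of these data known. Lists are described by counts and medians. A list of RNA-quality transcripts is not analysed here, and some list members and genes chosen by the rule are not reported here.

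Alternatives were another pseudocount (0.1), other filters, scaling, removal of Mup and mitochondrial transcripts, fewer groups in the fit, array weights, a replicate block, and each library left out in turn. Combinations of scaling with leaving out an HFD library or with the block, and list counts under them, were added after seeing the data. On simulated data of 10551 genes with planted changes, the fit of HFD against RD in LFKO livers recovered 86% of log2 changes of 1 and 99% of 2. It made 5 false calls among 190. For the difference between the LFKO and WT responses it recovered 61% and 90%, with 6 false calls among 157. The simulation gave each gene the same spread in all groups and independent noise. It held no library that stands apart and no shift shared by the genes of a library. These rates therefore do not carry over to the real libraries. Promoters are from RefSeq (GRCm38.p6). Figures used matplotlib 3.10.9 (Python 3.11.15).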

Additional observations from a re-analysis of the deposited data

Results flagged for a closer look

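10 results stand out because the limma test of a difference in diet response between genotypes called them. In Cyp2c69 the diet response of LFKO livers differed from that of WT livers by -3.4 on the log2 scale (adjusted p = 0.0185), and that of LFPKO livers differed from that of LFKO livers by 4.27 (adjusted p = 0.000624). Its near-identical neighbour Cyp2c40 had a difference of 4.39 between LFPKO and LFKO livers (adjusted p = 0.0449). These copies share sequence, so the pair is not independent. On RD Cyp2c69 was at no more than 3.07 TPM in WT livers and 0.373 TPM in LFPKO livers. Cyp2c40 was at no more than 3.94 TPM in RD LFPKO livers. A fall as large as in LFKO livers could therefore not be seen there on log2(TPM + 1). For this pair a difference in diet response cannot be told apart from a difference in RD level.

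Fgf21 had a difference of 1.86 between the LFPKO and LFKO diet responses. Its RD libraries in LFPKO livers were at no more than 0.395 TPM, below the pseudocount of 1, so a fall could hardly be seen there. The others were lower in LFPKO livers: Cib3 by a difference of -3.74, Rasgef1b of -2.69, Errfi1 of -1.69, Etfbkmt of -1.51 and Pik3c2a of -1.26. Cebpe was also lower, with no difference given because it was listed at 0 in the 3 RD_LFKO libraries. All of these had an adjusted p of 0.0449 by limma.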

How the results depend on the processing

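None of the genes called for HFD against RD in LFKO livers or for the differences of responses changed sign under the alternatives that were run. Of genes called in WT and LFPKO livers 178 and 8 changed sign with scaling, and 282 and 69 without Mup and mitochondrial transcripts, none of them with a call. The call of 997 genes for HFD against RD in LFKO livers became 432 with only the compared groups in the fit, 2838 with array weights, 326 to 1377 without single libraries and 568 with scaling and without HFD 2; under the other alternatives it lay between 711 and 1147. WT livers went from 3250 to 823 with scaling, 848 without Mup and mitochondrial transcripts, 5028 with array weights, 920 to 3590 without single libraries and 796 with scaling and a replicate block. LFPKO livers went from 2773 to 1411, 1319, 1242 with only the compared groups, 1307 to 2911 and 1376. The difference between LFKO and WT responses, 1 gene, was 0 with a pseudocount of 0.1, 4 without a filter, 4 with at least 5 TPM, 2 with scaling, 4 with only the compared groups (Cyp2c69 not among them), 1847 with array weights, 0 to 90 without single libraries, 3 with scaling and a replicate block, and 10 or 0 with scaling and without HFD 1 or HFD 2. The difference between LFPKO and LFKO responses, 13 genes, was 0 with a pseudocount of 0.1, 5 without a filter, 2 without Mup and mitochondrial transcripts, 3 with only the compared groups, 376 with array weights, 4 with a replicate block, 1 to 12 without single libraries, and 8 or 2 with scaling and without HFD 1 or HFD 2. The cause of these changes was not tested. The leave-outs and the fits of compared groups also had fewer libraries.

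The replicate numbers did not pair the LFKO libraries (correlations of deviations 0.000218, 0.0741 and -0.0175), and the replicate block gave 897 calls for HFD against RD in LFKO livers. Of the 30 genes that the rule chose for the diet comparison 28 kept their call with the block, 28 with scaling, 26 with a pseudocount of 0.1, 21 without a filter, 23 with only the compared groups and 21 to 28 without single libraries. Depth is unknown, so low TPM cannot be given a counting error.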
